A study of Mus musculus with 24 samples.

Results

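The genes of lipogenesis, triglyceride synthesis and lipid droplets were read in mouse livers of controls and of knockouts of the clock gene Bmal1. The set held 45 genes of the 56941 in the count table, taken by symbol from a fixed list. That list was chosen with earlier results of these data known, so its shares beside all genes are descriptions. A filter on low counts left 20514 genes for testing, and 44 of the 45 members passed it. Cidea, a droplet protein of brown fat, did not pass: it had 0 counts in 21 of the 24 libraries and at most 8 in any. The members were split by role into 3 regulators, 6 genes of acetyl-CoA and NADPH supply, 3 of fatty acid synthesis, 8 of elongation and desaturation, 2 of fatty acid activation, 10 of triglyceride synthesis, 5 of lipolysis and 8 of the lipid droplet.

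Polyadenylated liver RNA was sequenced from 8 groups of 3 libraries, 4 genotypes at each of 2 circadian times, CT2 and CT14, which fall early in the rest phase and early in the active phase of a mouse. WT were Bmal1+/+ and KO were Bmal1-/- mice, bred from heterozygotes on C57BL/6J. The gene was thus disrupted in every tissue of KO. F were Bmal1f/f mice without Cre. LKO were Alb-Cre; Bmal1f/f mice; the albumin promoter acts in hepatocytes, and other liver cells keep the gene. Ages are not given in the labels, which also do not say whether the 3 libraries of a group came from separate animals, so p-values measure the spread between these samples, which may be technical. The comparisons ask which genes depend on Bmal1 in the whole animal or in hepatocytes, and at which time.

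As background, the liver turns dietary carbohydrate into fat. Citrate and acetate give cytosolic acetyl-CoA, acetyl-CoA carboxylase and fatty acid synthase build palmitate with NADPH, and elongases and desaturases modify it. Acyl-CoAs are then joined to glycerol 3-phosphate by acyltransferases, lipins and DGAT enzymes, and the triglyceride is stored in droplets coated with perilipins and CIDE proteins until lipases release it. SREBP-1c (Srebf1) answers to insulin and ChREBP (Mlxipl) to sugar, and many of their targets follow feeding. BMAL1 pairs with CLOCK and binds the E-box CACGTG, while REV-ERB and ROR proteins bind the RORE.

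Promoter windows of 300 bases, 250 before and 50 after a gene's start, were found in the RefSeq table (GRCm38.p6) for 38 of the 45 members, in 53 windows. CACGTG, which reads the same on both strands, was in 9 of the 53 windows (17%) against 7.15% of all 32851 windows in the table. The sterol regulatory element TCACNCCAC, on either strand, was in 1 member window (1.89%, Mlxipl) against 1.24% of all. The RORE TAGGTCA, on either strand, was in 1 member window (1.89%, Plin2) against 2.61% of all. The windows with CACGTG belonged to Elovl5, Lipe, Lpin2, Lpin3, Mgll, Mlxipl, Plin2, Pnpla5 and Slc25a1. Of these 9 genes, 5 differed between KO and WT at CT14, beside 15 of all 44 tested members and 5.31% of all genes. Elovl5, Lpin3 and Plin2 were higher in KO, and Lpin2 and Mgll lower. None of the 5 was called in LKO against F at CT14, where Mlxipl was. The windows of 4 of the 5 are printed below, a choice made after their values were seen. That of Lpin3, the lowest of the 5 in level, is not. Each sequence runs 5′ to 3′ on the gene's strand from 250 bases before the start to 10 after. Capitals mark CACGTG or, in Plin2, also TGACCTA, the RORE read on the opposite strand.
Elovl5, chr9:77917115-77917374, plus strand, CACGTG from base 90: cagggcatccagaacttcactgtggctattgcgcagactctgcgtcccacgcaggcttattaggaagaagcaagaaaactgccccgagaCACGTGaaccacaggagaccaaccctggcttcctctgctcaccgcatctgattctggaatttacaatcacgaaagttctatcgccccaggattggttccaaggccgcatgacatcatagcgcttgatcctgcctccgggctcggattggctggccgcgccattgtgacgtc
Plin2, chr4:86670050-86670309, minus strand, TGACCTA from base 33 and CACGTG from base 247: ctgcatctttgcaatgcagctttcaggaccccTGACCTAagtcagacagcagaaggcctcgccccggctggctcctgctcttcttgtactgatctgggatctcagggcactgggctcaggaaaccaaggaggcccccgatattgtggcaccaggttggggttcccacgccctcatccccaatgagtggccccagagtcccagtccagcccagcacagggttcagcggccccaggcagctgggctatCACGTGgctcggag
Lpin2, chr17:71183282-71183541, plus strand, CACGTG from base 242: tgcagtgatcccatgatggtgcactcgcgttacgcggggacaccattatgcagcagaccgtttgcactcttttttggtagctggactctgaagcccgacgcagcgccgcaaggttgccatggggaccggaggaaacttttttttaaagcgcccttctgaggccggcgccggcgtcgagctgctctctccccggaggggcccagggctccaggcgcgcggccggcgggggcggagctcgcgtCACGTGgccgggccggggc
Mgll, chr6:88724162-88724421, plus strand, CACGTG from base 207: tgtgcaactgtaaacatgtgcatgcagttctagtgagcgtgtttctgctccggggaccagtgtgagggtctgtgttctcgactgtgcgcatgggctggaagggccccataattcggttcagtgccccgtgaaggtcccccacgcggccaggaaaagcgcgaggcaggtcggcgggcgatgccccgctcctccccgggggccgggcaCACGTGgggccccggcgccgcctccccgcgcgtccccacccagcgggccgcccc
Lipe and Slc25a1 have the same hexamer in their windows and passed no test in any comparison. A match is a description of the letters in this window and says nothing of binding.

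The libraries held 88995300 to 131545000 estimated counts, and replicates correlated at 0.933 to 0.973. CPM here is the count scaled to the library's total over the tested genes and its TMM factor. Bmal1 was at 30.7 to 33.8 CPM in WT at CT2 and at 6.66 to 7.57 in the 6 KO libraries. It was at 26.6 to 29.8 CPM in F at CT2 and at 5.46 to 7.91 in the 6 LKO libraries, so the labels held at CT2. Reads of Bmal1 thus remained in both knockouts. At CT14 WT was at 2.93 to 8.16 and F at 3.26 to 15 CPM, which overlapped the knockouts. The summed level of 9 hepatocyte markers, 57600 to 139500 CPM over all libraries, was 61990 to 83600 in KO against 99090 to 113200 in WT at CT14, and 63530 to 74670 in LKO against 95580 to 139500 in F. At CT2 it was 65930 to 90470 in LKO against 99450 to 106400 in F, and in KO (57600 to 92900) it overlapped WT (85340 to 120800). Alb, albumin, carried these differences: at CT14 it was at 34650 to 50100 CPM in KO against 68910 to 82890 in WT, and at 33310 to 44360 in LKO against 67440 to 109900 in F. The other 8 markers summed to 27340 to 33500 CPM in KO and 29960 to 30270 in WT, which overlapped, and to 30220 to 32880 in LKO and 28140 to 29610 in F. The part of Alb in the results was not tested. Of 9 adipocyte markers, Lep and Ucp1 were at 0 in every library, Adipoq at most at 0.344 and Plin1 at 0.172 CPM, and all but Car3 summed to 5.05 to 14.2 CPM. Some libraries stood apart. Acinar transcripts of the pancreas (10 markers) summed to 2584 CPM in F CT2 replicate 3 and 703.3 in F CT14 replicate 3, against 24.1 to 101.7 elsewhere. In the other libraries Cela1 made up most of that sum, at 18.7 to 99.3 CPM, and no other marker exceeded 4.21. Spermatid transcripts (10 markers) summed to 6.94 to 31.3 CPM in all F and LKO libraries and in KO CT2 replicate 2 and KO CT14 replicate 1, against 0.332 to 0.983 in the rest. The Y-linked gene Ddx3y was at 3.86 CPM in F CT2 replicate 3, 8.15 in LKO CT2 replicate 3 and 9.61 in KO CT2 replicate 1, and at 25.7 to 48.5 in the other libraries. Summed markers of Kupffer cells ran from 425.1 to 1375 CPM, of endothelium from 301 to 477.8, of stellate cells from 328 to 523.4, and of lymphocytes up to 14.2. In bulk tissue, fewer cells of a type and less RNA per cell cannot be told apart.

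Levels are given here per length, in TPM. Scd1, the main stearoyl-CoA desaturase of liver, had the highest mean over the 24 libraries, 1007 TPM, which was 18.3% of the summed TPM of the 45 members. Thrsp, the thyroid hormone responsive Spot 14 protein that promotes lipogenesis, followed at 741.5 TPM (13.5%), then Dgat2 at 322.9 and Plin2 at 298.2. The adipose and low-level members closed the order: Cidec at 1.39, Mogat1 at 0.234, Pnpla5 at 0.156 and Cidea at 0.0096 TPM. Between libraries the range was widest for Pnpla3, from 0.0495 TPM in LKO CT14 replicate 2 to 31.6 in F CT14 replicate 2, then Thrsp, from 55.1 in WT CT2 replicate 3 to 2737 in WT CT14 replicate 1, among members above 0 in every library. Dgat1 and Agpat3 varied least, with a highest level 1.77 and 1.89 times the lowest.

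**Figure D1:**
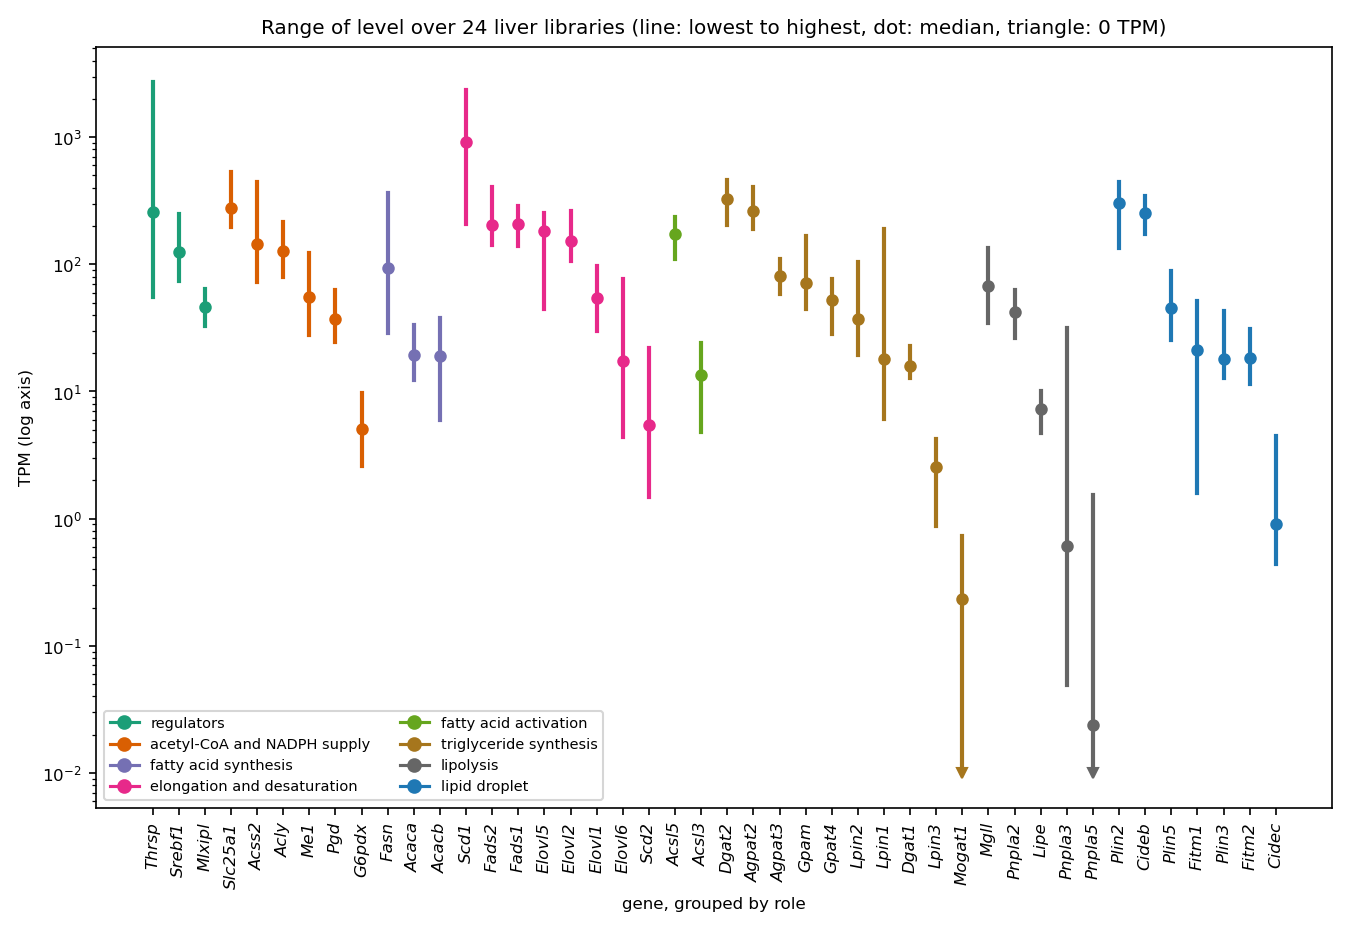
Level of the 44 tested members in TPM (log axis) over all 24 libraries, grouped by role; each line runs from the lowest to the highest library and the dot is the median, and a triangle marks 0 TPM. Thrsp runs from 55.1 to 2737 TPM and Pnpla3 from 0.0495 to 31.6, while Dgat1 stays between 12.8 and 22.7.

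Between CT2 and CT14, 11 different members changed in at least 1 of the control genotypes. In WT, 4 rose (Thrsp, Gpat4, Lpin1, Lpin2) and 2 fell (Elovl5, Plin2), 6 of 44 (13.6%), against 2.54% of all 20514 genes tested with edgeR at an adjusted p below 0.05. In F, 6 rose (Thrsp, Fasn, Fads2, Gpat4, Lpin1, Mgll) and 2 fell (Lpin3, Plin3), 8 of 44 (18.2%), against 2.66% of all genes. The median log2 difference, CT14 minus CT2, was 0.28 over the members and 0.00 over all genes in WT, and 0.29 and 0.03 in F. WT and F share no library, and 3 genes, Thrsp, Gpat4 and Lpin1, rose in both, 50% of the WT and 37.5% of the F calls. Without F CT2 replicate 3 and F CT14 replicate 3, the libraries with acinar transcripts, 3 members were called in F, and 207 of all genes in place of 545. The F count was 5 without F CT14 replicate 2, F CT2 replicate 2 or F CT2 replicate 3 alone.

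In KO no member passed between the times. With edgeR 0 of 44 were called, against 0% of all genes, 0 members (and 3.67% of all genes) had an unadjusted p below 0.05, and the DESeq2 Wald test and limma on log2(TPM + 1) also called 0. Over all genes those tools called 37 and 1. The median size of the log2 time difference was 0.10 over the members and 0.21 over all genes in KO, against 0.48 and 0.29 in WT. In LKO, 1 member rose at CT14 (Plin5) and 2 fell (Acss2, Acacb), 3 of 44 (6.82%), against 0.848% of all genes. That share was not stable: 174 genes were called in all, 10 to 59 when any 1 library was left out, 37 with only the 12 libraries compared and 81 with a replicate block. The median size of the difference was 0.43 over the members in LKO and 0.55 in F.

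The test of the difference in time effect itself called 3 of 44 members between KO and WT (6.82%, against 0.799% of all genes): Thrsp and Lpin1 rose and Plin2 fell in WT, while in KO the log2 time difference was -0.52 ± 0.41 for Thrsp, -0.02 ± 0.43 for Lpin1 and -0.10 ± 0.18 for Plin2, none of which passed. Between LKO and F it called 2 (4.55%, against 0.112%), Acss2 and Acacb, both of which fell from CT2 to CT14 in LKO. Acacb was lower in LKO than F at CT14, whereas Acss2 was higher in LKO than F at CT2 and overlapped F at CT14. The second count was 1 without the acinar libraries, and 1 without any single library of the 12 except F CT14 replicate 1 and F CT2 replicate 3.

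At CT14 both knockouts differed from their controls at many members, mostly downward. In KO, 11 were lower (Thrsp, Acacb, Elovl6, Fads2, Gpat4, Lpin1, Lpin2, Mgll, Cidec, Fitm1, Fitm2) and 4 higher (Scd2, Elovl5, Lpin3, Plin2), 15 of 44 (34.1%), against 5.31% of all genes. In LKO, 7 were lower (Mlxipl, Thrsp, Me1, Acacb, Fasn, Gpam, Pnpla3) and 1 higher (Scd2), 8 of 44 (18.2%), against 1.73% of all genes. The median log2 difference was -0.30 over the members and 0.01 over all genes in KO, and -0.34 and -0.01 in LKO. Thrsp and Acacb were lower and Scd2 higher in both, 20% of the KO and 37.5% of the LKO calls. These comparisons share the WT or F libraries at CT14 with the time comparisons above. On log2(TPM + 1) with limma the split was 5 higher and 5 lower in KO, and 4 higher and 6 lower in LKO, where the median of all genes shifted by 0.12. The KO count was 7 without KO CT14 replicate 3 and 11 without the 2 KO libraries with spermatid transcripts. The LKO count was 5, 4 and 5 without F CT14 replicate 2, LKO CT14 replicate 2 and LKO CT14 replicate 3, and 7 without the acinar libraries.

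At CT2 few members differed. In KO 1 was higher (Scd2) and 0 lower of 44 (2.27%), against 0.517% of all genes, with a median log2 difference of -0.10 over the members. In LKO 2 were higher (Acss2, Scd2) and 0 lower (4.55%), against 0.4% of all genes, with a median of -0.05. With the replicate block within these 2 groups, whose numbers pair, 230 of all genes were called in place of 82, and 2 members as before. The LKO count was 1 without F CT2 replicate 1.

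Over the mean of both times, KO had 2 members higher (Acss2, Scd2) and 8 lower (Mlxipl, Thrsp, Lpin1, Pnpla5, Mgll, Cidec, Fitm1, Fitm2), 22.7% of 44 against 5.4% of all genes. LKO had 3 higher (Acss2, Scd2, Elovl2) and 7 lower (Mlxipl, Thrsp, Me1, Acacb, Fasn, Gpam, Pnpla3), 22.7% against 3.13%. Mlxipl and Thrsp were lower and Acss2 and Scd2 higher in both, 40% of each list. On log2(TPM + 1) the splits were 4 higher and 7 lower in KO and 7 higher and 5 lower in LKO, where the median of all genes shifted by 0.10. The KO count was 6 without KO CT2 replicate 1 and the LKO count 6 without LKO CT14 replicate 2. The test of the KO effect minus the LKO effect called 0 of 44 members with edgeR, against 0.107% of all genes; 9 members (and 8.12% of all genes) had an unadjusted p below 0.05, and DESeq2 and limma also called 0. The controls themselves differed at 2 members (4.55%, against 2.54% of all genes), Fasn and Gpam, both higher in F than in WT over both times. Without the acinar libraries 0 members and 152 of all genes were called, in place of 521. Spermatid transcripts summed to 6.94 to 31.3 CPM in F and to 0.332 to 0.983 in WT, without overlap. The difference between F and WT thus cannot be told apart from this split.

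**Figure D2:**
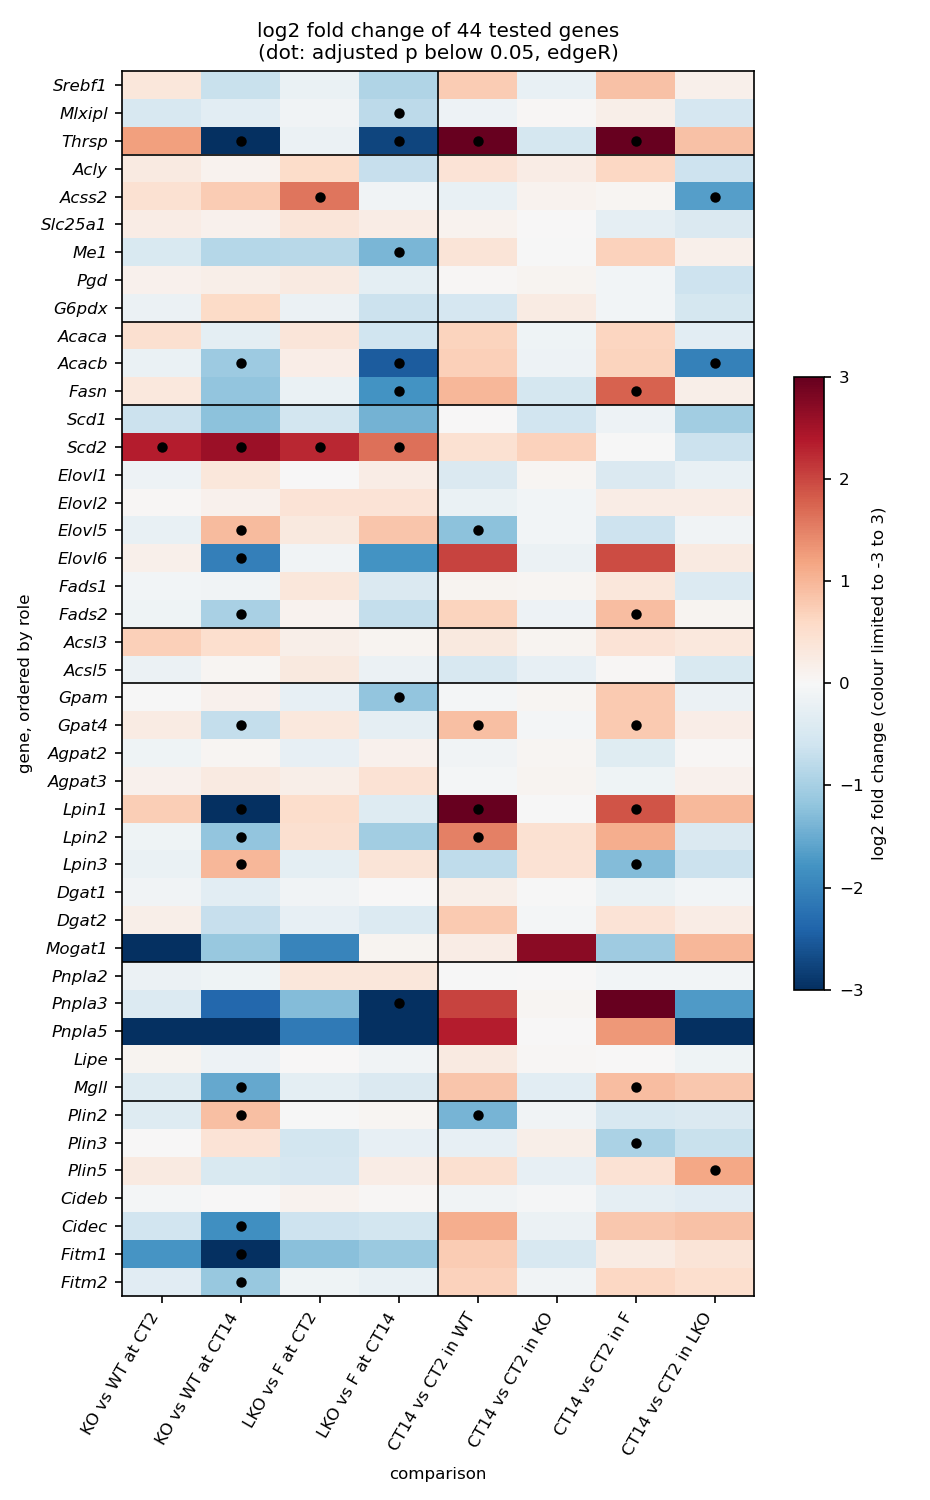
Log2 fold change of the 44 tested members (rows, by role) in 8 comparisons, with colours limited to -3 and 3 and a dot where the adjusted p was below 0.05. The column for CT14 vs CT2 in KO has 0 dots, against 6 in WT and 8 in F, and KO vs WT at CT14 has the most dots, 15.

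Among the regulators, Thrsp rose at CT14 in both controls and was lower in both knockouts at that time. In WT it read 94.3, 107 and 41.1 CPM at CT2 and 2179, 2120 and 1733 at CT14. In F it read 181, 187 and 121 at CT2 and 1906, 1899 and 1535 at CT14. The times did not overlap in either genotype, and the rise was 24.9-fold in WT (log2 fold change 4.64 ± 0.47 (SE), adjusted p = 5.64e-06) and 10.9-fold in F (log2 fold change 3.45 ± 0.44 (SE), adjusted p = 0.000137). In KO it read 284, 98.6 and 183 CPM at CT2 and 98.4, 210 and 86.4 at CT14, and in LKO 139.5, 100.5 and 191 at CT2 and 211, 394 and 185 at CT14. All knockout libraries at both times were thus below every control library at CT14. At CT14 Thrsp was 15.3-fold lower in KO than WT (log2 fold change -3.93 ± 0.46 (SE), adjusted p = 2e-05) and 6.76-fold lower in LKO than F (log2 fold change -2.76 ± 0.43 (SE), adjusted p = 0.00103). At CT2 neither difference passed (1.22 ± 0.41 in KO, adjusted p = 0.308, and -0.18 ± 0.40 in LKO, adjusted p = 0.996). The time effect in KO minus that in WT was -5.15 ± 0.61 (adjusted p = 0.000141), while the difference between LKO and F, -2.57 ± 0.58, did not pass (adjusted p = 0.112). Over both times Thrsp was 2.56-fold lower in KO (0.00748 adjusted p) and 2.77-fold lower in LKO (0.00591). None of the Thrsp calls was lost when any single library was left out.

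Mlxipl, the sugar-responsive transcription factor ChREBP, was lower in LKO at CT14. There it read 67.95, 64.1 and 54.6 CPM in LKO and 99.8, 116 and 106 in F, without overlap (log2 fold change -0.79 ± 0.16 (SE), adjusted p = 0.00829). That call ended at an adjusted p of 0.0785 without LKO CT14 replicate 3. In KO it read 75.7, 73.4 and 82.8 CPM at CT2 and 91.9, 72.04 and 74.6 at CT14, and in WT 102, 131 and 93.1 at CT2 and 88.4, 91.5 and 115 at CT14. The KO libraries lay below WT at CT2 and 1 of them lay within the WT range at CT14, and the mean over both times was lower (log2 fold change -0.40 ± 0.11 (SE), adjusted p = 0.0379). The mean over both times was also lower in LKO than F (log2 fold change -0.45 ± 0.11 (SE), adjusted p = 0.0274), with 73.5, 96.4 and 94.2 CPM in LKO and 106, 95.9 and 82.7 in F at CT2, where the groups overlapped. The KO call over both times ended without any 1 of the libraries except KO CT14 replicate 1, WT CT2 replicate 3 and WT CT14 replicate 1 (adjusted p from 0.0511 to 0.113). The LKO call over both times ended without any 1 of the libraries except LKO CT2 replicate 2, LKO CT2 replicate 3, LKO CT14 replicate 1, F CT2 replicate 3 and F CT14 replicate 1 (adjusted p from 0.0502 to 0.0937).

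Srebf1, which encodes the insulin-responsive SREBP-1c, passed in no comparison. It read 185, 244 and 226 CPM at CT2 and 413, 354 and 344 at CT14 in WT, and 297, 219 and 372 at CT2 and 550, 514 and 567 at CT14 in F. In KO the values were 404, 179.9 and 241 at CT2 and 241, 240.4 and 219 at CT14, and in LKO 210, 185 and 382 at CT2 and 362, 293 and 212 at CT14. In both controls every CT14 library was above every CT2 library, and at CT14 every KO library was below every WT library and every LKO library below every F library. The log2 difference at CT14 was -0.66 ± 0.28 in KO (adjusted p = 0.203) and -0.91 ± 0.28 in LKO (adjusted p = 0.121).

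Of the genes that supply acetyl-CoA and NADPH, Acss2, the cytosolic acetyl-CoA synthetase that activates acetate, stood out in LKO at CT2. It read 509, 487 and 753 CPM in LKO and 182, 204 and 185 in F at CT2, and 190.5, 165 and 205 in LKO and 139.8, 274 and 186 in F at CT14. The LKO libraries at CT2 were above every other library of the study, 3.06-fold above F (log2 fold change 1.61 ± 0.24 (SE), adjusted p = 0.00133), and at CT14 the genotypes overlapped (-0.10 ± 0.23, adjusted p = 1). Within LKO it fell from CT2 to CT14 by 3.12-fold (log2 fold change -1.64 ± 0.24 (SE), adjusted p = 0.00311), and the time effect differed from that in F (log2 difference -1.71 ± 0.33 (SE), adjusted p = 0.0382). The LKO increase at CT2 and the fall to CT14 held whichever library was removed. The difference in time effect ended without any 1 of the libraries except F CT2 replicate 3 and F CT14 replicate 1 (adjusted p from 0.0509 to 0.157). In KO the values were 334, 242 and 333 CPM at CT2 and 294, 349.5 and 335 at CT14, against 213, 255 and 197 at CT2 and 257, 151 and 164 at CT14 in WT. At CT14 KO lay above all WT libraries without passing (0.77 ± 0.23, adjusted p = 0.0571), and over both times it was 1.53-fold higher in KO (log2 fold change 0.61 ± 0.16 (SE), adjusted p = 0.0307) and 1.69-fold higher in LKO (log2 fold change 0.76 ± 0.16 (SE), adjusted p = 0.0105). The KO call over both times ended without any 1 of the libraries except KO CT2 replicate 2, KO CT14 replicate 1, WT CT2 replicate 2 and WT CT14 replicate 1 (adjusted p from 0.0578 to 0.0951). The LKO call over both times ended without the acinar libraries (adjusted p = 0.0518) and without those of low Ddx3y (0.0504).

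Me1, malic enzyme, which makes NADPH, was lower in LKO. At CT14 it read 81.3, 68.6 and 81.3 CPM in LKO and 282, 199 and 114 in F, without overlap (log2 fold change -1.36 ± 0.32 (SE), adjusted p = 0.0278). The call at CT14 ended without any 1 of the libraries except F CT14 replicate 3 (adjusted p from 0.0723 to 0.162). At CT2 the values were 56.99, 46.7 and 103 in LKO and 93.8, 172 and 102 in F, and over both times Me1 was 2.14-fold lower (log2 fold change -1.10 ± 0.22 (SE), adjusted p = 0.00719), a call that held whichever library was removed. In KO the values were 96.9, 94.6 and 89.7 at CT2 and 110.3, 104 and 64.8 at CT14 against 157, 118 and 111 at CT2 and 215, 152 and 138 at CT14 in WT, all KO below WT at both times, but the mean did not pass (-0.66 ± 0.22, adjusted p = 0.0981). Acly (ATP citrate lyase), Slc25a1 (the mitochondrial citrate carrier), Pgd and G6pdx (NADPH from the pentose phosphate pathway) passed in none of the 14 comparisons. Between genotypes or times their log2 differences ran from -0.69 (Acly, LKO vs F at CT14) to 0.62 (Acly, CT14 vs CT2 in F).

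The 3 genes of fatty acid synthesis were on average higher at CT14 than CT2 in both controls, and 1 of these 6 differences passed. The libraries of Acacb overlapped between the times in both controls, while those of Fasn and Acaca did not. Fasn, fatty acid synthase, read 753, 374 and 592 CPM at CT2 and 2131, 2224 and 1523 at CT14 in F, a 3.42-fold rise with no overlap (log2 fold change 1.77 ± 0.36 (SE), adjusted p = 0.00882). In WT it read 386, 404 and 324 at CT2 and 1031, 559.6 and 619 at CT14, also without overlap, and did not pass (0.99 ± 0.35, adjusted p = 0.179). In LKO it read 348, 428 and 719.7 at CT2 and 649.5, 482 and 556 at CT14, so that at CT14 every LKO library was below every F library, 3.48-fold lower on average (log2 fold change -1.80 ± 0.36 (SE), adjusted p = 0.00772). The LKO call at CT14 ended at an adjusted p of 0.0683 without LKO CT14 replicate 2. The call over both times (2-fold lower, adjusted p = 0.0274) ended without any 1 of the libraries except LKO CT2 replicate 3, LKO CT14 replicate 1, F CT2 replicate 2 and F CT14 replicate 3 (adjusted p from 0.0538 to 0.0864), and also without the acinar libraries (adjusted p = 0.0588). In KO Fasn read 422, 473 and 497 at CT2 and 168, 540.2 and 259.8 at CT14; all KO libraries lay above all WT libraries at CT2 and below them at CT14, where the difference missed the threshold (-1.19 ± 0.35, adjusted p = 0.0517). Over both times Fasn was 2.03-fold higher in F than WT (log2 fold change 1.02 ± 0.25 (SE), adjusted p = 0.0309). That call ended without any 1 of the libraries except F CT2 replicate 2, F CT14 replicate 3 and WT CT14 replicate 1 (adjusted p from 0.0554 to 0.0934).

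Acacb, the acetyl-CoA carboxylase at the mitochondrial surface whose malonyl-CoA restrains fatty acid oxidation, had its lowest levels in LKO at CT14. There it read 27.1, 29.8 and 33.5 CPM against 123, 189 and 200.1 in F and 83.9, 119 and 165 in LKO at CT2. The 3 LKO libraries at CT14 lay below every other library of the study, 5.68-fold below F (log2 fold change -2.51 ± 0.30 (SE), adjusted p = 6.53e-05) and 4.08-fold below LKO at CT2 (log2 fold change -2.03 ± 0.30 (SE), adjusted p = 0.00311). At CT2 F read 109.6, 130.3 and 80.3, which overlapped LKO (0.20 ± 0.29, adjusted p = 0.979). The time effect in LKO differed from that in F (log2 difference -2.71 ± 0.41 (SE), adjusted p = 0.00423), and over both times Acacb was 2.22-fold lower in LKO (adjusted p = 0.0022). All 4 of these calls held whichever library was removed. In KO at CT14 it read 47.7, 95.9 and 73.7 CPM against 192, 105 and 162 in WT, without overlap (log2 fold change -1.08 ± 0.29 (SE), adjusted p = 0.0311), and at CT2 84.2, 70.3 and 88.3 against 116, 98.4 and 64.96. The KO call ended without any 1 of the libraries except KO CT14 replicate 2 and WT CT14 replicate 2 (adjusted p from 0.0896 to 0.164).

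Acaca, the cytosolic carboxylase of fatty acid synthesis, passed in no comparison. It read 65.8, 80.5 and 78.1 CPM at CT2 and 129, 107 and 118 at CT14 in WT and 83.8, 108 and 89.6 at CT2 and 137, 180.3 and 122 at CT14 in F, without overlap in either (0.66 ± 0.20, adjusted p = 0.0858, and 0.64 ± 0.20, adjusted p = 0.0857). In KO it read 86.03, 88.1 and 141 at CT2 and 84.9, 111 and 92.5 at CT14, and in LKO 92.5, 130.2 and 139 at CT2 and 102, 96.8 and 92.8 at CT14, with the times overlapping in both knockouts.

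**Figure D3:**
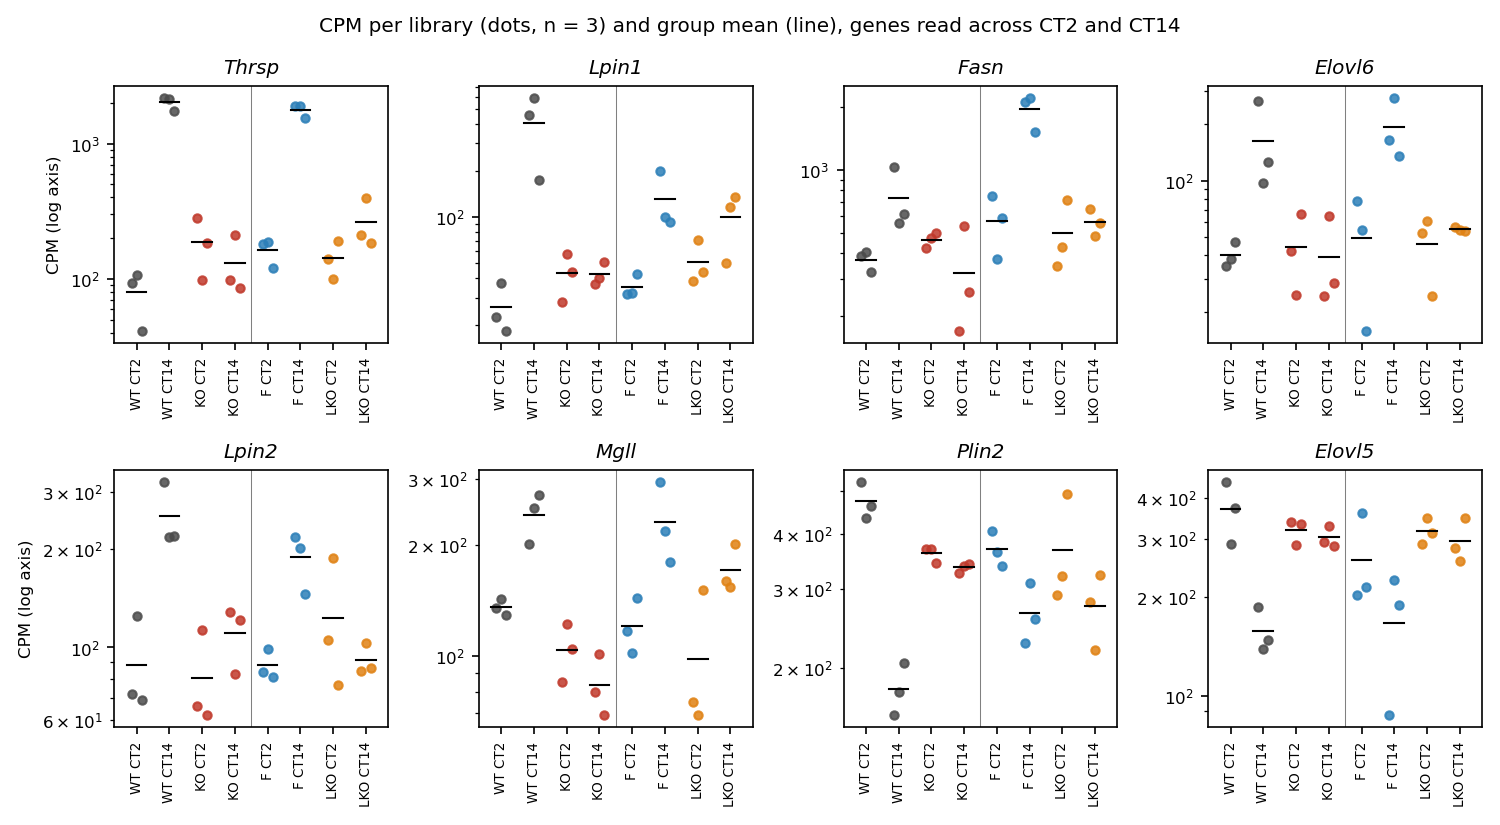
CPM of 8 members in each library (dots, n = 3 a group, log axes) with the group mean (line), for WT, KO, F and LKO at CT2 and CT14. Thrsp lies between 1535 and 2179 CPM in WT and F at CT14 and at 394 CPM or lower in every other library, and Plin2 is lowest in WT at CT14.

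Scd2, a stearoyl-CoA desaturase that is low in normal liver beside Scd1, was higher in both knockouts at both times. In WT it read 5.13, 9.33 and 6.33 CPM at CT2 and 13.2, 8.89 and 6.66 at CT14, and in KO 26.4, 17.7 and 62.2 at CT2 and 55.5, 57.3 and 57.6 at CT14. In F it read 6.23, 11.6 and 15.5 at CT2 and 7.59, 12.97 and 12.2 at CT14, and in LKO 54.8, 53.4 and 50.8 at CT2 and 29.96, 32.5 and 40.1 at CT14. Every knockout library was above every control library of either kind. The increase in KO was 5.11-fold at CT2 (log2 fold change 2.35 ± 0.39 (SE), adjusted p = 0.00536) and 5.93-fold at CT14 (log2 fold change 2.57 ± 0.39 (SE), adjusted p = 0.000369). In LKO it was 4.78-fold at CT2 (log2 fold change 2.26 ± 0.39 (SE), adjusted p = 0.00736) and 3.13-fold at CT14 (log2 fold change 1.64 ± 0.38 (SE), adjusted p = 0.0262). Over both times the log2 difference was 2.46 ± 0.28 in KO (adjusted p = 1.4e-05) and 1.95 ± 0.27 in LKO (adjusted p = 0.000199), and the difference of the 2 effects did not pass (0.51 ± 0.37, adjusted p = 0.883). The KO value at CT2 was 1.67 without KO CT2 replicate 3, still called. The LKO call at CT2 ended at an adjusted p of 0.063 without F CT2 replicate 1. The LKO call at CT14 ended without any 1 of the 6 libraries (adjusted p from 0.0564 to 0.132), and without the acinar libraries (adjusted p = 0.0761). How reads shared between the Scd genes were counted is not given in the sources used here.

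Scd1, the highest member per length, passed in no comparison. It read 3317, 1483 and 3030 CPM at CT2 and 4463, 1816 and 1614 at CT14 in WT, and 2138, 525 and 2362 at CT2 and 835, 1686 and 828 at CT14 in KO. In F it read 3089, 7143 and 5466 at CT2 and 2938, 6946 and 4133 at CT14, and in LKO 3240, 4308 and 3185 at CT2 and 2192, 1355 and 1693 at CT14. At CT14 the LKO libraries were below all F libraries, and the difference did not pass (-1.42 ± 0.51, adjusted p = 0.232); in KO at CT14 the groups overlapped (-1.24 ± 0.51, adjusted p = 0.198).

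Elovl6, which elongates palmitate to stearate, was lower in KO at CT14, and Elovl5, an elongase of polyunsaturated fatty acids, was higher. Elovl6 read 24.2, 65.1 and 28.6 CPM in KO and 267, 96.7 and 125 in WT at CT14, without overlap (log2 fold change -2.05 ± 0.54 (SE), adjusted p = 0.0311). At CT2 the values were 42.2, 24.7 and 66.5 in KO and 35.05, 38.1 and 47.4 in WT. The KO call at CT14 ended at an adjusted p of 0.141 without KO CT14 replicate 1, 0.132 without KO CT14 replicate 3 and 0.173 without WT CT14 replicate 1. In F it read 78.2, 54.5 and 15.7 at CT2 and 165, 277 and 135 at CT14 and in LKO 52.9, 61.04 and 24.3 at CT2 and 56.9, 54.7 and 53.9 at CT14, and neither the time effect in F (1.96 ± 0.54, adjusted p = 0.0595) nor the LKO difference at CT14 (-1.80 ± 0.54, adjusted p = 0.118) passed. Elovl5, whose promoter window is shown above, fell in WT from 447, 290.4 and 372 CPM at CT2 to 186, 139 and 148 at CT14 (log2 fold change -1.23 ± 0.27 (SE), adjusted p = 0.0117), while in KO it read 338, 287 and 333 at CT2 and 294, 329 and 286 at CT14. The KO libraries lay above WT at CT14 (log2 fold change 0.94 ± 0.26 (SE), adjusted p = 0.0396) and overlapped WT at CT2. F libraries read 203, 359 and 215 at CT2 and 87.3, 225 and 189 at CT14, and LKO 290.3, 346 and 312 at CT2 and 281, 257 and 348 at CT14, above F in every library at CT14 without passing (0.82 ± 0.26, adjusted p = 0.148). The fall in WT ended at an adjusted p of 0.0842 without WT CT14 replicate 2, 0.0595 without WT CT14 replicate 3 and 0.0707 without WT CT2 replicate 1. The KO call ended without any 1 of the 6 libraries (adjusted p from 0.055 to 0.171).

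Fads2, the delta-6 desaturase, was higher at CT14 in controls. In floxed controls it read 319, 293 and 410.2 CPM at CT2 and 582, 784 and 576 at CT14 (log2 fold change 0.93 ± 0.24 (SE), adjusted p = 0.0436), and in WT 368, 449 and 307 at CT2 and 584, 533 and 668 at CT14, where the difference did not pass (0.67 ± 0.24, adjusted p = 0.194). In KO it read 392.5, 347 and 286 at CT2 and 297, 287 and 333 at CT14, 1.95-fold below WT at CT14 with no overlap (log2 fold change -0.96 ± 0.24 (SE), adjusted p = 0.0209). In LKO it read 277, 292 and 536 at CT2 and 343, 307 and 524 at CT14, below F at CT14 in every library without passing (-0.73 ± 0.24, adjusted p = 0.172). The rise in F ended without any 1 of the libraries except F CT2 replicate 3 (adjusted p from 0.074 to 0.188). The KO call ended without any 1 of the libraries except KO CT14 replicate 3 and WT CT14 replicate 2 (adjusted p from 0.0533 to 0.084), and without the KO libraries with spermatid transcripts, as were those of Acacb, Elovl5 and Elovl6 (adjusted p = 0.0894, 0.175, 0.0931 and 0.124, in this order).

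Elovl2, an elongase of very long polyunsaturated fatty acids, was 1.33-fold higher in LKO than F over both times (log2 fold change 0.41 ± 0.10 (SE), adjusted p = 0.0263). It read 437, 454 and 346 CPM at CT2 and 452, 469 and 526 at CT14 in LKO and 324, 342 and 267 at CT2 and 374, 390.2 and 321 at CT14 in F, without overlap at either time. In WT it read 346, 374 and 384 at CT2 and 353, 287 and 319.5 at CT14, and in KO 361, 425 and 338 at CT2 and 383, 355 and 319 at CT14, which overlapped. The call ended at an adjusted p of 0.07 without LKO CT2 replicate 1, 0.0767 without LKO CT2 replicate 2, 0.0549 without LKO CT14 replicate 2, 0.0878 without LKO CT14 replicate 3 and 0.0879 without F CT14 replicate 3, and without the acinar libraries (adjusted p = 0.124). Elovl1 and Fads1 passed in no comparison, with log2 differences between genotypes or times from -0.43 to 0.35. The acyl-CoA synthetases Acsl3 and Acsl5, which activate fatty acids, passed in none either, and the lowest adjusted p of the pair was 0.0648, for Acsl3 in F against WT.

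In triglyceride synthesis, Lpin1, Lpin2 and Gpat4 rose at CT14 in WT, and Lpin1 and Gpat4 also in F. Lpin1, a phosphatidate phosphatase that also acts as a transcriptional coactivator in liver, read 22.6, 37.1 and 18.1 CPM at CT2 and 459, 595 and 175 at CT14 in WT. KO read 28.1, 57.8 and 43.8 at CT2 and 37.02, 40.04 and 50.8 at CT14, with overlapping times. The rise in WT was 15.8-fold (log2 fold change 3.98 ± 0.48 (SE), adjusted p = 5.2e-05), the KO level at CT14 was 9.61-fold lower (log2 fold change -3.27 ± 0.47 (SE), adjusted p = 0.000198), and the time effect differed between KO and WT (log2 difference -4.00 ± 0.63 (SE), adjusted p = 0.00247). These 3 calls held whichever library was removed. In F Lpin1 rose 3.71-fold from 31.5, 31.9 and 42.5 to 200.2, 100.5 and 92.2 CPM (log2 fold change 1.89 ± 0.44 (SE), adjusted p = 0.0237). LKO read 38.5, 70.98 and 43.8 at CT2 and 50.6, 116 and 134 at CT14, overlapping F at CT14 (-0.38 ± 0.43, adjusted p = 0.934), and the difference in time effect from F did not pass (-0.91 ± 0.61, adjusted p = 0.94). The rise in F ended without any 1 of the libraries except F CT14 replicate 2 and F CT14 replicate 3 (adjusted p from 0.0674 to 0.141). At CT2 Lpin1 was on average higher in KO than WT, with overlap, and did not pass. The mean over both times was lower in KO (log2 fold change -1.26 ± 0.31 (SE), adjusted p = 0.0178). That call ended at an adjusted p of 0.0503 without KO CT2 replicate 1, 0.0563 without WT CT2 replicate 2 and 0.0621 without WT CT14 replicate 2. The KO effect minus the LKO effect was -1.34 ± 0.43 (adjusted p = 0.34).

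Lpin2, a second phosphatidate phosphatase whose window holds CACGTG close to the start, read 71.95, 125 and 68.9 CPM at CT2 and 322, 218 and 219 at CT14 in WT, a 2.86-fold rise (log2 fold change 1.52 ± 0.31 (SE), adjusted p = 0.00699). The KO livers read 66.4, 113 and 61.9 at CT2 and 128, 83.1 and 122 at CT14, and at CT14 every KO library was below every WT library (log2 fold change -1.19 ± 0.30 (SE), adjusted p = 0.0231). F read 84.04, 99.2 and 81.3 at CT2 and 218, 201 and 146 at CT14 and LKO 106, 188 and 76.96 at CT2 and 84.6, 103 and 86.7 at CT14; neither the rise in F (1.10 ± 0.30, adjusted p = 0.0552) nor the lower level in LKO at CT14 (-1.04 ± 0.30, adjusted p = 0.0967) passed, though the groups did not overlap. The rise in WT ended at an adjusted p of 0.0531 without WT CT2 replicate 1, and the KO call at an adjusted p of 0.113 without KO CT14 replicate 2, 0.0583 without KO CT14 replicate 3 and 0.121 without WT CT14 replicate 1. Lpin3, the low member of the family in liver, ran the other way. It read 5.304, 7.36 and 8.799 CPM at CT2 and 3.08, 2.87 and 2.699 at CT14 in F (log2 fold change -1.31 ± 0.25 (SE), adjusted p = 0.00545), a fall that was lost without the acinar libraries (adjusted p = 0.108). At CT14 it read 5.92, 5.697 and 7.76 in KO and 3.26, 2.14 and 4.32 in WT, a higher level in KO with no overlap (log2 fold change 0.99 ± 0.25 (SE), adjusted p = 0.0185). That call ended at an adjusted p of 0.0994 without KO CT14 replicate 3, 0.0644 without WT CT14 replicate 1 and 0.128 without WT CT14 replicate 2. At CT2 WT read 4.72, 6.36 and 5.37 and KO 5.36, 4.48 and 4.49, and LKO read 4.87, 5.33 and 7.45 at CT2 and 3.94, 4.26 and 3.18 at CT14.

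Gpat4, a glycerol-3-phosphate acyltransferase of the endoplasmic reticulum, rose at CT14 in both controls. It read 135, 124 and 144 CPM at CT2 and 247, 239.6 and 263 at CT14 in WT (log2 fold change 0.90 ± 0.17 (SE), adjusted p = 0.00349), and 93.4, 113 and 175 at CT2 and 216, 218 and 224 at CT14 in F (log2 fold change 0.79 ± 0.17 (SE), adjusted p = 0.0123). KO libraries read 178, 144 and 158 at CT2 and 163, 146 and 148 at CT14, 1.64-fold below WT at CT14 with no overlap (log2 fold change -0.71 ± 0.17 (SE), adjusted p = 0.0135), and LKO 154, 141 and 177 at CT2 and 163, 183 and 197 at CT14, below F at CT14 in every library without passing (-0.28 ± 0.17, adjusted p = 0.645). The rise in F ended at an adjusted p of 0.0818 without F CT2 replicate 1. The KO call ended at an adjusted p of 0.0558 without KO CT14 replicate 2, 0.0586 without KO CT14 replicate 3 and 0.0538 without WT CT14 replicate 3.

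Gpam, the mitochondrial glycerol-3-phosphate acyltransferase and a known SREBP-1c target, differed at CT14 in LKO. It read 235, 187 and 219 CPM in LKO and 393, 609 and 464 in F, without overlap (log2 fold change -1.19 ± 0.23 (SE), adjusted p = 0.00707), and at CT2 225, 228 and 268 in LKO and 369, 224 and 259.9 in F. The call at CT14 ended at an adjusted p of 0.0651 without LKO CT14 replicate 2 and 0.0513 without F CT14 replicate 2. The mean over both times was also lower in LKO (log2 fold change -0.72 ± 0.16 (SE), adjusted p = 0.0159), a call that ended at an adjusted p of 0.0571 without LKO CT14 replicate 2, 0.0613 without F CT2 replicate 1 and 0.0519 without F CT14 replicate 2. WT read 259, 240.2 and 196 at CT2 and 288, 173 and 202 at CT14 and KO 227, 249 and 214 at CT2 and 223, 325 and 174 at CT14, and these overlapped. F was higher than WT over both times (log2 fold change 0.72 ± 0.16 (SE), adjusted p = 0.0229), a call that ended at an adjusted p of 0.0558 without F CT2 replicate 1, 0.0623 without F CT14 replicate 2, 0.0657 without WT CT2 replicate 3, 0.0718 without WT CT14 replicate 2 and 0.0572 without WT CT14 replicate 3; it and that of Fasn were also lost without the acinar libraries (adjusted p = 0.0591 and 0.0721).

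Dgat2, which adds the last acyl chain in the liver, read 289, 411 and 339 CPM at CT2 and 573, 577 and 652 at CT14 in WT, and did not pass (0.79 ± 0.23, adjusted p = 0.0817). KO read 429, 429.8 and 316 at CT2 and 423, 367 and 333 at CT14, below WT in every library at CT14 (-0.68 ± 0.23, adjusted p = 0.103). F read 337, 319 and 599.8 at CT2 and 589, 529 and 543 at CT14, and LKO 276, 285 and 503 at CT2 and 431, 418 and 398 at CT14. Dgat1, Agpat2, Agpat3 and Mogat1, the other acyltransferases of the set, passed in no comparison. Mogat1 had at most 72 counts in a library and 0 in 4 libraries, and its log2 differences ran from -3.64 to 2.72.

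Of the lipases, Mgll, the monoglyceride lipase that frees the last fatty acid, was lower in KO. It read 135, 143 and 129 CPM at CT2 and 201, 251 and 271 at CT14 in WT and 85.2, 122 and 105 at CT2 and 80.2, 101 and 69.5 at CT14 in KO, with every KO library below every WT library at each time. The difference passed at CT14 (log2 fold change -1.53 ± 0.25 (SE), adjusted p = 0.000736) and over both times (log2 fold change -0.96 ± 0.18 (SE), adjusted p = 0.00202), and both calls held whichever library was removed. In F Mgll rose from 117, 102 and 143 to 296, 217 and 179.7 CPM (log2 fold change 0.94 ± 0.25 (SE), adjusted p = 0.0485), and LKO read 75.2, 69.1 and 151 at CT2 and 159, 154 and 200.5 at CT14, overlapping F at both times. The rise in F ended without any 1 of the libraries except F CT14 replicate 3 (adjusted p from 0.0624 to 0.237). The KO effect minus the LKO effect was -0.60 ± 0.25 (adjusted p = 0.513).

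Pnpla3, a SREBP-1c target known for a human variant in fatty liver, was low and uneven. The F livers read 1.03, 1.04 and 1.37 CPM at CT2 and 0.657, 23.6 and 6.85 at CT14, and LKO 0.383, 0.666 and 0.342 at CT2 and 0.286, 0.0367 and 0.0982 at CT14. All LKO libraries were below all F libraries at each time, and the difference passed at CT14 (log2 fold change -6.18 ± 1.03 (SE), adjusted p = 0.00188) and over both times (log2 fold change -3.74 ± 0.66 (SE), adjusted p = 0.00212). F CT14 replicate 2 set much of its size: without it the log2 difference was -4.72 at CT14 and -3.01 over both times, and without LKO CT14 replicate 1 it was -7.21 at CT14, all still called. In WT Pnpla3 read 0.463, 0.54 and 0.391 at CT2 and 3.63, 0.544 and 1.49 at CT14, and in KO 0.454, 0.252 and 0.342 at CT2 and 0.238, 0.649 and 0.206 at CT14, which overlapped at both times. Pnpla5, a related lipase, had 0 counts in all 6 KO libraries and at most 210 in any library. WT read 0.104, 0 and 0 CPM at CT2 and 0.222, 0.0713 and 0.262 at CT14. Against a floor of 3 counts per library, KO was at least 4.15-fold lower over both times. The same bound was 7.21-fold at CT14 and 1.27-fold at CT2, and the difference passed at neither time alone. The call over both times (adjusted p = 0.0435) was lost in 17 of 21 alternatives, among them leaving out WT CT2 replicate 1, where the adjusted p was 1; it was also lost without any 1 of the libraries except WT CT2 replicate 2 and replicate 3 (lowest adjusted p = 0.0587). F libraries read 0, 1.07 and 0.112 at CT2 and 0.315, 2.01 and 0.633 at CT14, and LKO 0.125, 0.0396 and 0.104 at CT2 and 0.0238, 0 and 0 at CT14. Pnpla2 (adipose triglyceride lipase) and Lipe (hormone-sensitive lipase) passed in no comparison, with log2 differences between genotypes or times from -0.40 to 0.34.

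On the lipid droplet, Plin2, the main perilipin of hepatocytes, fell at CT14 in WT, and its time effect differed in KO. In WT it read 524, 435 and 462 CPM at CT2 and 156, 176 and 205 at CT14, a 2.65-fold fall (log2 fold change -1.40 ± 0.18 (SE), adjusted p = 0.000101). The KO livers read 369, 370.5 and 344 at CT2 and 327, 339 and 343 at CT14, below WT at CT2 in every library and above it at CT14, and the KO libraries at CT14 were all below those at CT2 (-0.10 ± 0.18, adjusted p = 1). The difference passed at CT14 (log2 fold change 0.91 ± 0.18 (SE), adjusted p = 0.00382) and not at CT2 (-0.39 ± 0.18, adjusted p = 0.526), and the time effect differed between KO and WT (log2 difference 1.3 ± 0.26 (SE), adjusted p = 0.0128). These calls held whichever library was removed; the last was lost without both KO libraries with spermatid transcripts (adjusted p = 0.0591). In floxed controls it read 406, 364 and 338 at CT2 and 228, 309.8 and 257 at CT14, and in LKO 291, 322 and 492 at CT2 and 282, 219 and 323 at CT14, with F and LKO overlapping at both times (0.05 ± 0.18 at CT14, adjusted p = 1). Its promoter window holds both CACGTG and the RORE, as printed above.

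The fat storage-inducing transmembrane proteins Fitm1 and Fitm2, which help droplets form at the endoplasmic reticulum, were lower in KO. Fitm1 read 23.1, 8.42 and 19.9 CPM at CT2 and 28.7, 27.5 and 31.3 at CT14 in WT and 5.84, 5.72 and 3.58 at CT2 and 8.34, 1.61 and 0.888 at CT14 in KO, with no overlap at either time. It was 8.09-fold lower at CT14 (log2 fold change -3.02 ± 0.74 (SE), adjusted p = 0.0196) and 5.24-fold lower over both times (log2 fold change -2.39 ± 0.51 (SE), adjusted p = 0.00815). Without KO CT14 replicate 1, the highest of its group, the log2 difference was -4.54 at CT14 and -3.15 over both times. The CT14 call ended at an adjusted p of 0.0899 without KO CT14 replicate 2 and 0.0766 without KO CT14 replicate 3, and the call over both times held whichever library was removed. F read 25.1, 23.9 and 7.17 at CT2 and 31.1, 23.7 and 11.3 at CT14, and LKO 6.66, 2.95 and 13.98 at CT2 and 12.5, 6.603 and 11.7 at CT14. The groups overlapped at both times (-1.18 ± 0.49 over both, adjusted p = 0.283). At each time replicate 3 of F, a library with acinar transcripts, lay within the LKO range. At CT2 only LKO replicate 3, at 13.98 CPM, lay above it. The part of the acinar transcripts in this was not tested. The other F libraries, at 23.7 to 31.1 CPM, were above every LKO library, at most 13.98. The KO effect minus the LKO effect did not pass for Fitm1. Fitm2 read 45.3, 30.7 and 49.9 at CT2 and 55.3, 75.4 and 71.5 at CT14 in WT and 30.6, 35.02 and 33.04 at CT2 and 32.4, 31.9 and 27.8 at CT14 in KO, lower at CT14 without overlap (log2 fold change -1.14 ± 0.23 (SE), adjusted p = 0.00422) and over both times (log2 fold change -0.74 ± 0.16 (SE), adjusted p = 0.00783), and both calls held whichever library was removed. F read 41.2, 30.3 and 45.5 at CT2 and 69.6, 54.3 and 55.5 at CT14 and LKO 31.7, 25.9 and 50.03 at CT2 and 46.8, 41.9 and 63.99 at CT14.

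Cidec, a droplet fusion protein that is low in lean liver, was also lower in KO. It read 1.14, 0.814 and 1.24 CPM at CT2 and 2.07, 1.997 and 2.71 at CT14 in WT and 0.549, 0.839 and 0.757 at CT2 and 0.768, 0.641 and 0.493 at CT14 in KO. At CT14 all KO libraries were below all WT libraries (log2 fold change -1.83 ± 0.42 (SE), adjusted p = 0.0112), and the mean over both times was lower (log2 fold change -1.20 ± 0.29 (SE), adjusted p = 0.0177). The CT14 call ended at an adjusted p of 0.0663 without KO CT14 replicate 3. F read 0.719, 0.948 and 0.917 at CT2 and 2.71, 0.822 and 0.992 at CT14 and LKO 0.641, 0.372 and 0.664 at CT2 and 0.557, 1.07 and 1.48 at CT14. The summed 9 adipocyte markers were at 228.1 to 868.2 CPM in KO and 1669 to 2350 in WT at CT14. Car3, also expressed in liver, carried this difference, at 223.1 to 860.1 CPM in KO and 1661 to 2340 in WT. Fabp4 read 8.34, 7.01 and 4.73 CPM in KO and 8.93, 7.24 and 5.89 in WT, which overlapped. The defining markers Lep and Ucp1 were at 0 in both groups and Adipoq and Plin1 at or near 0.

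Plin5, which ties droplets to mitochondria, rose in LKO from 27.6, 25.9 and 49.5 CPM at CT2 to 71.3, 68.04 and 91.7 at CT14 (log2 fold change 1.17 ± 0.27 (SE), adjusted p = 0.0474). The F livers read 47.2, 36.5 and 63.4 at CT2 and 78.6, 63.8 and 55.5 at CT14, and the difference in time effect did not pass (0.74 ± 0.38, adjusted p = 0.83). The LKO call ended without any 1 of the libraries except LKO CT2 replicate 3 (adjusted p from 0.0978 to 0.234). WT read 49.6, 42.9 and 50.99 at CT2 and 46.2, 91.7 and 62.8 at CT14 and KO 56.8, 64.02 and 52.9 at CT2 and 52.1, 58.9 and 34.6 at CT14, with overlapping times in both. Plin3, a droplet coat protein found in most tissues, fell in F from 64.8, 58.6 and 94.9 to 40.4, 32.9 and 38.96 CPM (log2 fold change -0.96 ± 0.20 (SE), adjusted p = 0.0101); without the acinar libraries the adjusted p was 0.14, and the call was also lost at an adjusted p of 0.0593 without F CT14 replicate 2 and 0.0681 without F CT2 replicate 3. WT read 31.8, 46.7 and 41.6 at CT2 and 28.8, 34.9 and 37.99 at CT14, KO 41.8, 44.99 and 34.5 at CT2 and 46.8, 51.9 and 37.2 at CT14, and LKO 40.2, 48.8 and 60.6 at CT2 and 33.8, 28.6 and 32.4 at CT14. Cideb, the CIDE protein of hepatocytes that acts in VLDL loading, passed in no comparison and stayed within 147.7 to 256.8 CPM.

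**Figure D4:**
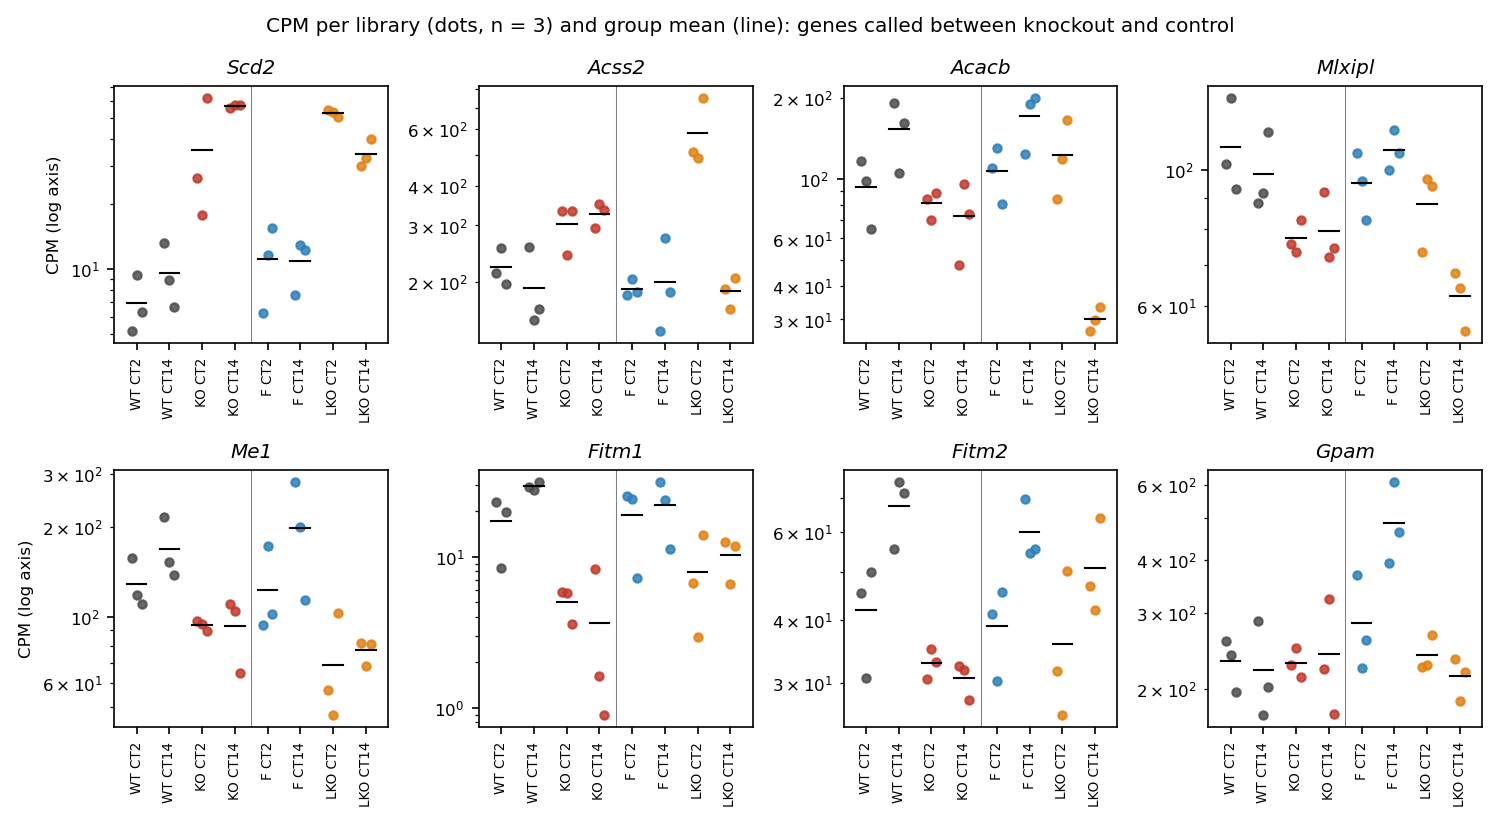
CPM of 8 members called between a knockout and its control, in each library (dots, n = 3 a group, log axes) with the group mean (line). All 12 knockout libraries of Scd2 lie above all 12 control libraries, Acss2 is highest in LKO at CT2, and Acacb is lowest in LKO at CT14.

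Counted over all 14 comparisons, 25 of the 45 members were called at least once and 20 never (19 tested members and Cidea). Of 70 called pairs of member and comparison, 36 stayed called through every removal of 1 library and 32 under every alternative tried, and 0 changed direction.

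The wider pathway was read through 70 other genes listed by function, of which 68 were tested. In KO at CT14, 5 rose and 9 fell (median log2 -0.16), and in LKO at CT14, 3 rose and 6 fell (median -0.13), beside the 5.31% and 1.73% of all genes given above. Lpl, lipoprotein lipase, which is normally low in adult hepatocytes, was higher in both: 209 CPM on average in KO against 11.6 in WT (log2 fold change 4.17 ± 0.40 (SE), adjusted p = 1.95e-06), and 207 in LKO against 9.83 in F (log2 fold change 4.40 ± 0.41 (SE), adjusted p = 2.16e-06). Ces1d, a carboxylesterase that hydrolyses triglyceride, was lower both in KO (-2.50 ± 0.35, adjusted p = 0.000136) and in LKO (-2.61 ± 0.35, adjusted p = 0.000193). Pklr, liver pyruvate kinase and a known ChREBP target, was lower in both (-2.05 ± 0.22, adjusted p = 6.14e-06, and -1.15 ± 0.21, adjusted p = 0.00469). Spring1, a factor needed for SREBP processing, was higher in both (1.06 ± 0.17, adjusted p = 0.000436, and 0.94 ± 0.17, adjusted p = 0.00279). Insig2, which holds SREBPs in the endoplasmic reticulum, was higher in KO (2.30 ± 0.35, adjusted p = 0.00033). In LKO at CT14 Insig2 read 246, 302 and 258 CPM against 70.9, 143 and 111 in F, above F in every library without passing. Elovl3, an elongase of saturated fatty acids, was higher both in KO (4.04 ± 0.74, adjusted p = 0.00229) and in LKO (5.07 ± 0.77, adjusted p = 0.00105).

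At CT2, 2 of the other genes rose (Lpl, Spring1) and 1 fell (Ces1d) in KO, beside 0.517% of all genes, and the same 2 rose in LKO, beside 0.4%. Over both times, 4 rose and 9 fell in KO, led by Lpl, Ces1d, Spring1, Pklr and Hsd17b11 (beside 5.4% of all genes), and 4 rose and 3 fell in LKO, led by Lpl, Spring1, Ces1d, Elovl3 and Gpat3 (beside 3.13%). From CT2 to CT14, 3 rose and 3 fell in WT (Pklr, Pdhb and Ppargc1b up, Insig2, Elovl3 and Gpat2 down), beside 2.54% of all genes. In F, 5 rose and 2 fell, among them Elovl3 and Insig2 (down) and Pklr and Hacd3 (up), beside 2.66%. In KO 0 of 68 were called, with 0 genes called in the whole table as given above, and in LKO 4 rose and 1 fell, beside 0.848%. The time effect differed between KO and WT for Insig2, Pklr and Pdhb (beside 0.799% of all genes) and between LKO and F for 0 of 68 (beside 0.112%). The test of the KO effect minus the LKO effect called 0 of 68 (beside 0.107%), and F differed from WT for Insig1 and Gpat2 (higher) and Slc27a2 (lower), beside 2.54%.

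In the authors' deposited table of KO against WT at CT14, 5 members were higher and 16 lower at an adjusted p below 0.05, of 44 with a value, and 12.3% of all genes were called. In the authors' deposited table of LKO against F at CT14, 4 were higher and 18 lower of 43, and 11.7% of all genes. The authors' deposited table of CT14 against CT2 in WT had 14 higher and 3 lower of 43, and 8% of all genes. The authors' deposited table of the same times in KO had 0 of 43, and 0.217% of all genes.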

How the data were processed

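The authors trimmed reads with fastp 0.23.2, aligned them to GRCm39 with HISAT2 2.2.1 and quantified genes with StringTie 1.3.1, per the submitters' processing notes. The authors deposited estimated counts and TPM, a length-scaled relative abundance, per gene for 24 liver libraries, and 10 comparison tables of log2 fold changes and p-values. How the estimated counts were derived from StringTie coverage, and how reads shared by several genes were treated, is not stated by the labels or file headers. Members and gene lists were chosen with earlier results of these data known. Levels within a gene are CPM computed from the deposited counts with TMM scaling, and levels between genes are TPM.

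Counts were rounded and tested with edgeR 4.0.16 in R 4.3.3: filterByExpr (minimum count 10, minimum total 15), TMM scaling, 8 group means over 24 libraries (16 residual degrees of freedom), the quasi-likelihood F-test, and Benjamini-Hochberg adjustment over all 20514 genes at 0.05. The SE is the log2 fold change divided by the square root of F. The procedure was also run on simulated counts with set changes in KO at CT14, without outlying libraries. No result above rests on that run. Members called in a comparison are named, with Srebf1, Mlxipl, Fasn, Scd1, Acaca and Dgat2 in any case, and of the other pathway genes up to 5 of lowest p, with 1 gene not reported here; a few more were named after their values were seen. Alternatives were DESeq2 1.42.0, limma 3.58.1 on log2(TPM + 1), DESeq2 size factors, no filter, counts divided by 4, a replicate block, only the 12 libraries compared, and the removal of single or doubted libraries. Same-numbered libraries of LKO and F at CT2 deviated together (correlations 0.18, 0.143 and 0.312), which counts as pairing by a rule of over 0.1 in every pair, and no other comparison met it. With the block the count for LKO against F at CT2 was 2, as without it.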

Additional observations from a re-analysis of the deposited data

Results flagged for a closer look

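Between KO and WT the change from CT2 to CT14 differed, by a test of that difference across all genes with edgeR, for 3 members. The log2 time effect in KO minus that in WT was -5.15 for Thrsp, -4.00 for Lpin1 and 1.3 for Plin2. Between LKO and F it differed for 2 members, by -1.71 for Acss2 and -2.71 for Acacb.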

How the results depend on the processing

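Counts of members called moved by over 1.5 times under these settings. With the DESeq2 Wald test 10 were called for time in WT (6 in the report), 14 in F (8), 5 in LKO (3), 5 for the difference in time effect between LKO and F (2) and 5 for F against WT (2). Calls over all genes rose too, from 521 to 949, 545 to 1172, 174 to 662, 23 to 130 and 521 to 1042 in this order. With limma on log2(TPM + 1) the last 2 gave 1 and 0. With only the 12 libraries compared, KO against WT at CT2 gave 0, time in F 5, the difference in time effect 5 for KO and 1 for LKO, and F against WT 1. No filter on low counts gave 5 for time in F. Without the libraries with pancreatic transcripts time in F gave 3, the LKO difference in time effect 1 and F against WT 0. Without those of low Ddx3y the KO difference in time effect gave 5 and F against WT 4. The cause was not tested.

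With a replicate block, the LKO difference in time effect gave 1 and F against WT 1, and no other count of members moved by over 1.5 times. Over all genes the block moved time in LKO from 174 to 81, and the block within LKO and F at CT2 moved that comparison from 82 to 230. Outside LKO and F at CT2 the libraries share only a number: 8 of 24 correlated best with their own number.

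Leaving out 1 library gave 1 to 1 members for KO at CT2, 7 to 13 at CT14 and 6 to 10 over both times. For LKO it gave 1 to 3, 4 to 7 and 6 to 12. For time it gave 4 to 6 in WT, 5 to 7 in F, 0 to 0 in KO and 2 to 4 in LKO. For the differences in time effect it gave 3 to 4 (KO) and 1 to 3 (LKO), for KO minus LKO 0 to 0, and for F against WT 0 to 3. Of 1176 values of called members under the alternatives, 225 lost the call and 0 reversed. With 3 libraries a group and genes such as Pnpla5 at 0 counts, depth limits the lowest members.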
